A study of Homo sapiens with 11 samples.

Results

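Genes known from liver and gut endoderm, *AFP*, *TTR*, *SERPINA1*, *FABP1*, *LGALS4*, *PHGR1* and *AGR2*, were followed through single-cell RNA sequencing of heart muscle cultures. The hormone gene *GNRH2* was followed with them. Together they are 8 of the 36601 genes in the deposited feature lists. All 8 were chosen with the levels in these libraries already known, so their levels and the differences between groups are a description and carry no test. All cells came from H9, an established human embryonic stem cell line, and were collected on day 42.5. The first group was a flat (2D) culture, the second was stable chambered cardioids (heart organoids that hold a cavity) made without PD173074, and the third was the same kind of cardioid with PD173074, an inhibitor of FGF receptor kinases. Neither the timing of PD173074 nor separate cultures are given in the labels. The 2D group had 3 libraries, the cardioids without PD173074 had 5 and the cardioids with PD173074 had 3.

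Libraries of 1 group shared 99.3% to 99.9% of their cell barcodes over 16 pairs, whereas libraries of different groups shared at most 0.737% over 39 pairs. The libraries of a group were therefore taken as the same droplets sequenced again, averaged, and counted as 1 sample. With 1 sample per group there is no replicate check, no p-value was computed, and the 95% intervals given below are exact and cover counting error only. The UMIs of these genes lay in few cells, so those intervals are narrower than the error over cells. After filtering, 8183 cells remained in 2D culture, 3534 in cardioids without PD173074 and 4597 in cardioids with PD173074, at median depths of 4313, 5060 and 6648 UMIs (unique molecules) per cell and run. Most cells carried heart muscle RNA: 5 or more of 13 heart muscle genes were found, at a mean of 1 UMI or more each, in 7409, 3161 and 3657 cells of the 3 samples. Passing this gate does not by itself make a cell heart muscle, as described below.

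The liver and the intestine both form from the endoderm, the innermost germ layer, while heart muscle forms from mesoderm next to it in the embryo. Fetal hepatocytes and the yolk sac endoderm secrete alpha-fetoprotein (*AFP*), the thyroid hormone and retinol carrier transthyretin (*TTR*) and the protease inhibitor alpha-1-antitrypsin (*SERPINA1*). Enterocytes line the intestine and carry the sugar-binding protein galectin 4 (*LGALS4*), and intestinal epithelium also expresses the small histidine- and glycine-rich protein PHGR1. *AGR2* encodes a disulfide isomerase of the endoplasmic reticulum needed for mucin production in goblet cells. *FABP1* encodes a fatty acid carrier used by both hepatocytes and enterocytes. *GNRH2* encodes the peptide gonadotropin-releasing hormone 2.

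In GRCh38 coordinates of the GENCODE v29 annotation, *AFP* lies at chr4:73431138-73456174 (plus strand), next to the albumin gene. *TTR* lies at chr18:31557010-31599021 (plus), *SERPINA1* at chr14:94376747-94390693 (minus) and *FABP1* at chr2:88122982-88128116 (minus). *LGALS4* lies at chr19:38801671-38813364 (minus), *PHGR1* at chr15:40351033-40356434 (plus), *AGR2* at chr7:16791811-16833433 (minus) and *GNRH2* at chr20:3043622-3045747 (plus). None of the 8 overlapped another annotated gene on either strand.

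The promoters of 4 of the genes are shown as examples, without those of *LGALS4* and *AGR2*. Each is the 250 bases before a RefSeq transcription start in GRCh38.p14, written 5′ to 3′ on the gene's strand. Capitals mark matches, on either strand, to 6 short motifs: the HNF1 half-site GTTAAT, the HNF4 core CAAAGNNCA, the FOXA core TGTTTNC, the CDX core TTTATNG, the GATA core GATAAG and the CEBP core TTGCNNAA. The windows are chr4:73435971-73436220 (plus) for *AFP*, chr14:94388603-94388852 (minus, the second of 2 listed starts) for *SERPINA1*, chr2:88128063-88128312 (minus) for *FABP1* and chr20:3043372-3043621 (plus) for *GNRH2*.
AFP: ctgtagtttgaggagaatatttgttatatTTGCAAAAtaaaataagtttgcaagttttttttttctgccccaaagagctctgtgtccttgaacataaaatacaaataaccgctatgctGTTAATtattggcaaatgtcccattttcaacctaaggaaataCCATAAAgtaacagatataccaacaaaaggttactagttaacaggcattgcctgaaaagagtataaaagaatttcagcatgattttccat
SERPINA1: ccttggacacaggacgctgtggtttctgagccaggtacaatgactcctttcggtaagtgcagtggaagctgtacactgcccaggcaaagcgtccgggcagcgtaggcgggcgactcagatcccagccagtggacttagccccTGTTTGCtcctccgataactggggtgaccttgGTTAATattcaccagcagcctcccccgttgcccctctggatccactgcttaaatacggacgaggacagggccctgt
FABP1: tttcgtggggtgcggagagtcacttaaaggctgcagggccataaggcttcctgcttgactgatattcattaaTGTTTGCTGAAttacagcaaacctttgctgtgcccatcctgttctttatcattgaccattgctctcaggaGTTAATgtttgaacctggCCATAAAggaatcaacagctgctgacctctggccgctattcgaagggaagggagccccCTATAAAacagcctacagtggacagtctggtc
GNRH2: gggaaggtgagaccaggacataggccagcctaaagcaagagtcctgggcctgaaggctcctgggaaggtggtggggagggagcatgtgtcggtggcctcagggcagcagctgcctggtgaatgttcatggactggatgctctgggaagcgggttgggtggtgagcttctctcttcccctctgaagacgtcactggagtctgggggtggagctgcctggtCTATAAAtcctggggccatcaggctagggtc

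The RefSeq table held 7 promoters of 6 of the genes, *TTR* and *PHGR1* not being among them. The promoter at the first listed *SERPINA1* start, not printed above, had 0 matches to the motifs. The HNF1 half-site was found in 3 of the 7, at -132 to -127 from the start in *AFP*, -76 to -71 in *SERPINA1* and -108 to -103 in *FABP1*, and in 6.23% of all 35116 promoters in the table. The CDX core was found in *AFP* at -90 to -84, in *FABP1* at -90 to -84 and again at -32 to -26, and in *GNRH2* at -31 to -25, against 8.93% of all promoters. The matches at -32 in *FABP1* and -31 in *GNRH2* read CTATAAA and so share their letters with a TATA box. The FOXA core was found in *SERPINA1* and *FABP1* (15.5% of all promoters) and the CEBP core in *AFP*, *FABP1* and *AGR2* (9.05%). In *FABP1* the FOXA and CEBP matches overlap. The GATA core was found in *LGALS4* (5.65%), and the HNF4 core (4.44% of all promoters) in none of the 7. These matches describe letters and do not show that a factor was bound.

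The 3 genes of secreted liver proteins differed from the 5 others in how they were spread over the groups. Values are UMIs of a gene per 1000000 UMIs (CPM) over all cells of a sample, given as the mean over runs, with the lowest and highest run. *AFP* stood at 3.45 CPM in 2D culture (3.36 to 3.57), 32.6 CPM in cardioids without PD173074 (30.6 to 35.3) and 13.0 CPM in cardioids with it (12.8 to 13.3). It was thus highest without PD173074. The runs of a group are repeat reads of 1 sample, so their ranges do not show how far separate cultures would differ. *TTR* stood at 0.875 CPM in 2D culture (0.631 to 1.01), 25.6 CPM without PD173074 (22.8 to 27.3) and 33.7 CPM with it (33.5 to 34.0). *SERPINA1* stood at 8.73 CPM in 2D culture (8.21 to 9.18), 60.3 CPM without PD173074 (55.6 to 70.7) and 39.3 CPM with it (38.5 to 40.5). All 3 genes were therefore higher in both cardioid samples than in 2D culture, with *TTR* alone highest with PD173074.

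The other 5 genes were near 0 in 2D culture, low in cardioids without PD173074 and highest in cardioids with it. *FABP1* stood at 0.239, 2.76 (2.23 to 3.21) and 31.3 CPM (30.6 to 32.1) in 2D culture, cardioids without and cardioids with PD173074. *LGALS4* stood at 0.149, 4.90 (4.45 to 5.89) and 38.0 CPM (36.5 to 39.3) in the same order. *PHGR1* stood at 0.0371, 3.21 (2.67 to 3.67) and 38.1 CPM (37.0 to 39.5). *AGR2* stood at 0.0519, 3.08 (2.84 to 3.53) and 22.8 CPM (22.5 to 23.2). *GNRH2* stood at 0.0147, 1.15 (0.824 to 1.44) and 34.0 CPM (33.6 to 34.6), the lowest of the 8 without PD173074. In 2D culture the last 3 were under the floor of 3 counts (0.067 CPM), with 5, 7 and 2 UMIs over the 3 runs together, so no fold against 2D culture is given for them.

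**Figure D1:**
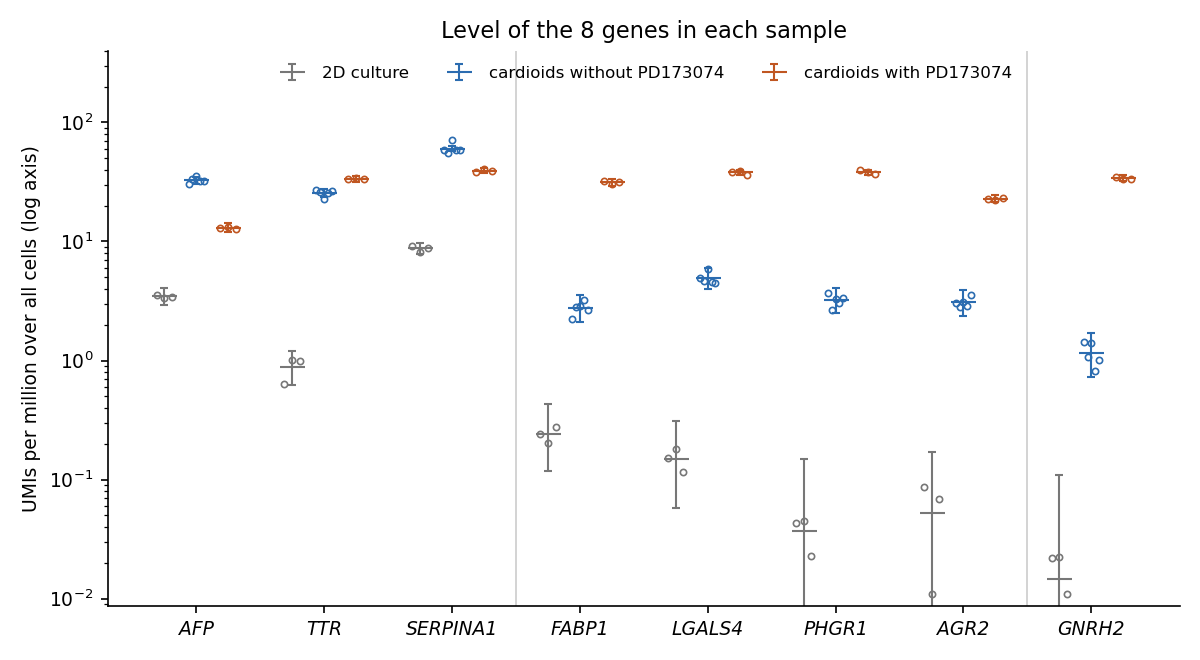
CPM of the 8 genes over all cells (vertical axis, log scale) in 2D culture, cardioids without PD173074 and cardioids with PD173074. Open circles are runs and bars with lines are the mean over runs with its exact 95% Poisson interval; a run with 0 UMIs is drawn at the lower edge, where low intervals run off the axis. *AFP* and *SERPINA1* are highest without PD173074 and the 5 genes from *FABP1* to *GNRH2* are highest with it, from 22.8 to 38.1 CPM.

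Between the cardioid samples, 5 of the 8 genes were higher with PD173074 and 1 was lower, counting a gene as different at 20 CPM or more in the higher sample and with its whole counting interval beyond 2-fold. By the same rule 3.0% of 8124 genes were higher and 1.97% lower. The genes were chosen on this difference, so nothing is read from the comparison of those shares. The log2 ratio of cardioids with to cardioids without PD173074 was 3.50 for *FABP1* (interval 3.13 to 3.91), 2.95 for *LGALS4* (2.66 to 3.26), 3.57 for *PHGR1* (3.22 to 3.95) and 2.88 for *AGR2* (2.52 to 3.27). For *GNRH2* it was 4.89 (4.31 to 5.54), a 29.7-fold higher level. *AFP* had a log2 ratio of -1.33 (-1.50 to -1.15). *SERPINA1*, at -0.62 (-0.73 to -0.51), and *TTR*, at 0.39 (0.25 to 0.54), did not pass the rule. The *TTR* ratio rests on 1 cell that held 66.0% of its UMIs without PD173074: with the highest cell left out of both samples, an alternative chosen after the data were seen, it was 1.74. The median ratio was 2.92 over the 8 genes and -0.10 over all genes tested.

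Against 2D culture, *AFP*, *TTR* and *SERPINA1* were higher in cardioids without PD173074 by log2 ratios of 3.24, 4.87 and 2.79, and the other 5 genes stayed under 20 CPM. Of 7916 genes, 0.998% were higher and 0.379% lower by this rule. With PD173074, 7 of the 8 were higher than in 2D culture, where 5.30% of 8087 genes were higher and 2.66% lower. *AFP*, at a log2 ratio of 1.92, was the exception because it lay under 20 CPM. The ratios with PD173074 were 5.27 for *TTR*, 2.17 for *SERPINA1*, 7.04 for *FABP1* and 8.0 for *LGALS4*. The 3 comparisons share their samples and are not independent of each other. The 2D levels of *AFP*, *TTR*, *SERPINA1* and *FABP1* rested mostly on 1 cell, described next. With the highest cell of each gene left out, the log2 ratios to 2D culture were 6.02 for *AFP* and 5.62 for *TTR* without PD173074 and 4.60 and 7.36 with it, and *SERPINA1* and *FABP1* in 2D culture were under the floor of 3 counts.

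A sum over all cells cannot tell fewer cells from less RNA per cell, so each gene was also read cell by cell, as UMIs per cell averaged over runs. At least 1 of the 8 genes reached 2 UMIs in 3 cells of the 2D culture, in 23 cells of the cardioids without PD173074 (0.651%) and in 60 cells of those with it (1.31%, Clopper-Pearson interval 0.997% to 1.68%). In 2D culture a single cell of 12410 UMIs held 137 *AFP*, 31.0 *TTR*, 389 *SERPINA1* and 9.33 *FABP1* UMIs. These were 88.6%, 79.5%, 99.5% and 87.5% of all UMIs of those genes in the sample. The same cell held 86.3 UMIs of *APOA1* (the main HDL apolipoprotein), 51.0 of *AHSG* (fetuin-A, a fetal serum protein) and 21.3 of *ALB* (albumin), 0 of *LGALS4*, *AGR2* and *GNRH2*, and 9 of the 13 heart muscle genes. In all other 2D cells together *AFP* was at 0.394 CPM and *SERPINA1* at 0.0439 CPM.

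The intestinal genes were seen in more cells with PD173074, and most of them at more UMIs per cell, in cells that were also deeper. *LGALS4* reached 2 UMIs in 7 cells without PD173074 (median 15.8 UMIs in these cells) and in 33 cells with it (median 27.7). *PHGR1* went from 8 cells (6.10) to 30 cells (28.2) and *FABP1* from 7 cells (5.60) to 27 cells (17.0). *AGR2* went from 5 cells (12) to 32 cells (10.0), so it was seen in more cells at a similar number of UMIs. Its median share of a cell's own UMIs was 1260 CPM without and 690 CPM with PD173074. *GNRH2* was found in 2 cells without PD173074, at 12 and 8.2 UMIs, and in 22 cells with it, at a median of 30.3. The cells that carried these genes were deep ones: the median depth of the *LGALS4* cells was 8081 UMIs without and 20410 UMIs with PD173074. As a share of each cell's own UMIs, the median was lower with PD173074 for *LGALS4* (2030 CPM without, 1750 CPM with) and higher for *PHGR1* (764 and 1830 CPM), *FABP1* (495 and 1240 CPM) and *GNRH2* (838 and 1850 CPM).

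The secreted liver genes went the other way per cell. *AFP* was found in 13 cells at a median of 35.0 UMIs without PD173074 and in 22 cells at 9.67 UMIs with it. As a share of each cell's own UMIs, the median was 4070 CPM without and 658 CPM with PD173074. *SERPINA1* was found in 15 cells (median 44.2 UMIs, 7630 CPM) and in 25 cells (12.7 UMIs, 795 CPM). *TTR* was found in 15 cells (11 UMIs, 1070 CPM) and in 36 cells (13.7 UMIs, 1360 CPM), and so had no such drop. A few cells held much of each sum: the highest cell had 511 *SERPINA1* UMIs (40.5%) without PD173074 and 461 (32.1%) with it.

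Droplets also take up free RNA, so the share of cells with any UMI was set beside the share among cells that passed the heart muscle gate, after thinning every cell to 2000 UMIs. With PD173074, *LGALS4* was seen in 0.697% of all thinned cells and 0.265% of gated cells, *GNRH2* in 0.511% and 0.118%, *AFP* in 0.465% and 0.176%, and *TTR* in 0.697% and 0.147%. Without PD173074, *AFP* was seen in 0.357% and 0.0662%. In 2D culture the *AFP* share was 0.0530% of all and 0.0579% of gated cells, with 4 thinned cells in each. The gate did not leave out the cells that held these genes. It was passed by the 2D cell with 137 *AFP* UMIs. With PD173074 it was passed by 3 liver-like, 5 intestine-like and 5 mixed cells (classes defined below). A gated share is therefore not free RNA alone, and the part of free RNA in it was not tested. Median depths of all and of gated cells were 6647 and 6271 UMIs with PD173074, 5060 and 5051 without, and 4313 and 4223 in 2D culture. Unthinned, in the first run with PD173074, 1.0% of all cells and 0.383% of gated cells had an *AFP* UMI.

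The genes of each set shared cells, and some cells carried genes of both. With PD173074, 28 of the 30 *PHGR1* cells and 26 of the 32 *AGR2* cells were also *LGALS4* cells, of which there were 33. *AFP* and *SERPINA1*, in 22 and 25 cells, shared 14, but *AFP* also shared 10 cells and *SERPINA1* 12 with *LGALS4*. *TTR* crossed both sets, with 19 of its 36 cells carrying *SERPINA1* and 19 carrying *PHGR1*. Of the 22 *GNRH2* cells, 21 carried *LGALS4*, 19 *PHGR1*, 16 *AGR2* and 14 *FABP1*, but 7 carried *SERPINA1* and 4 *AFP*. Without PD173074, *AFP* and *SERPINA1* shared 11 of 13 and 15 cells, and *AFP* shared 2 with *LGALS4*.

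**Figure D2:**
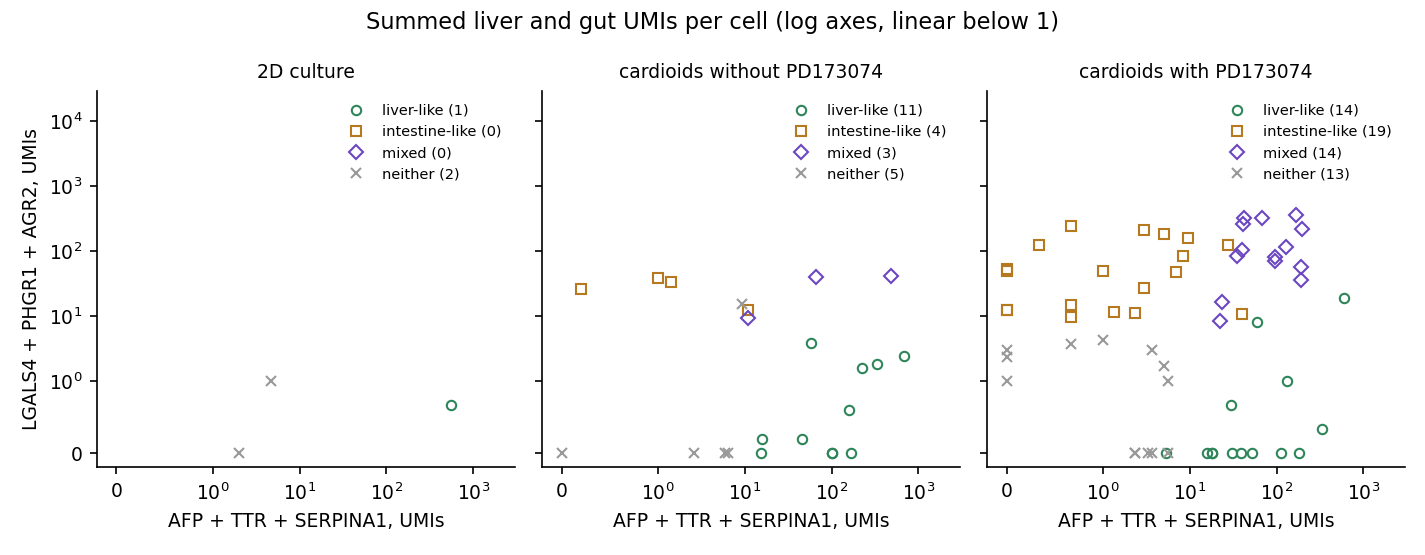
UMIs per cell of *AFP*, *TTR* and *SERPINA1* together (horizontal axis) against *LGALS4*, *PHGR1* and *AGR2* together (vertical axis) in cells with any of the 8 genes at 2 UMIs, 1 panel per sample; both axes are logarithmic above 1 and linear below. The 3 cells of 2D culture, 23 without PD173074 and 60 with it are marked by the classes defined in the next paragraph, neither meaning that no rule was met. Mixed cells, high on both axes, number 3 without PD173074 and 14 with it.

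Cells were therefore classed by co-detection, a gene counting as detected at 2 UMIs. A liver-like cell had at least 2 of *AFP*, *TTR* and *SERPINA1* and fewer than 2 of *LGALS4*, *PHGR1* and *AGR2*, and an intestine-like cell the reverse. A mixed cell had at least 2 of each set. The classes are cuts on a count, not cell types, and the levels of these 6 genes in them follow from the cut. *FABP1* and *GNRH2* were left out of the rule. The 2D culture had 1 liver-like cell (0.0122%) and 0 intestine-like cells of 8183, for which a limit of 3 counts allows a share of up to 0.0367% and the Clopper-Pearson interval one of up to 0.0451%. Liver-like cells made up 11 of 3534 cells without PD173074 (0.311%, interval 0.155% to 0.556%) and 14 of 4597 with it (0.305%, 0.167% to 0.510%). Intestine-like cells made up 4 (0.113%, 0.0308% to 0.290%) and 19 (0.413%, 0.249% to 0.645%). Mixed cells made up 3 (0.0849%, 0.0175% to 0.248%) and 14 (0.305%, 0.167% to 0.510%). The liver-like shares of the cardioid samples thus lay within each other's intervals. Intestine-like and mixed cells were more numerous with PD173074 at full depth, but the intervals of the 2 samples overlapped in part for both classes. The gut genes of the rule were chosen with their higher level with PD173074 already known. These class counts are therefore a description too and no separate support for that difference.

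These cells were deeper than their samples. Median depths of liver-like, intestine-like and mixed cells were 7715, 7838 and 11660 UMIs without PD173074 and 11890, 16260 and 25590 UMIs with it. Cells of the first run were also thinned to 2000 UMIs, in 1 random draw. Liver-like cells then numbered 8 of 3357 without (0.238%) and 7 of 4302 with PD173074 (0.163%). Mixed cells numbered 2 (0.0596%) and 4 (0.0930%), and intestine-like cells 2 (0.0596%) and 14 (0.325%). The liver-like and mixed counts at this common depth are too small to order the samples. No doublets were removed and no doublet caller was used here. Heart muscle genes summed to a median of 3.33, 3.0 and 5.83 UMIs in the 3 classes with PD173074, against 115.3 in the whole sample. Even so, 3, 5 and 5 cells of the classes had 5 or more heart muscle genes, and the highest sum in each was 301.3, 429.7 and 214.7 UMIs. The part of droplets with more than 1 cell among the mixed cells was not tested.

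**Figure D3:**
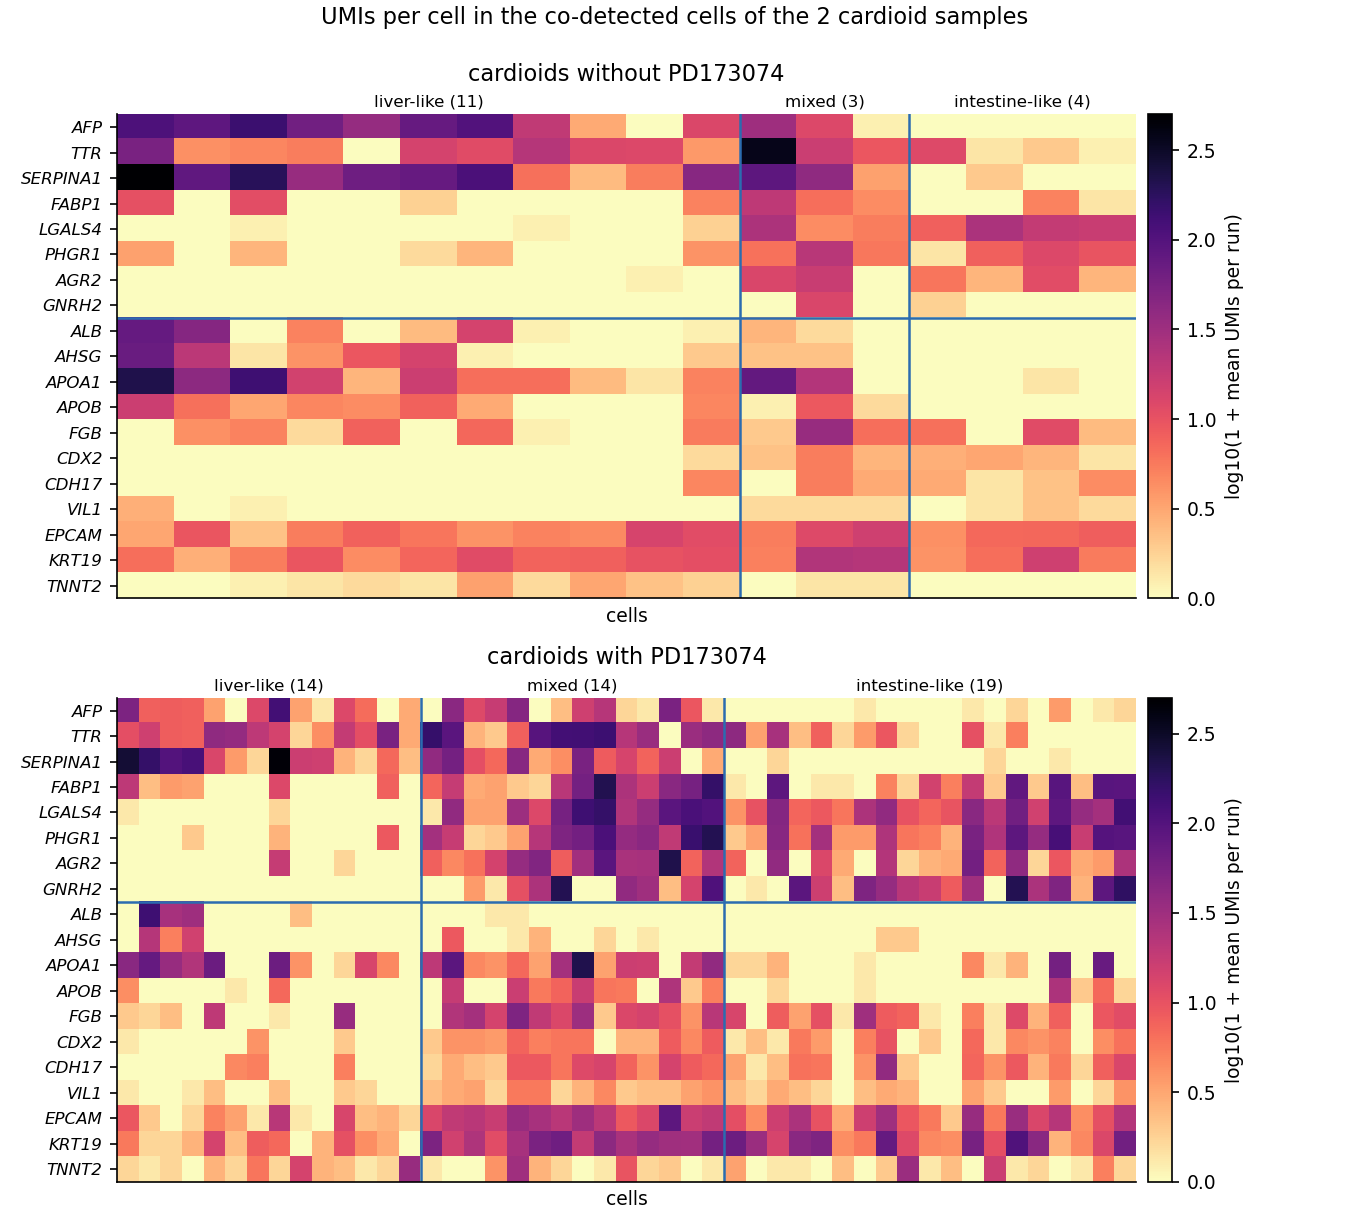
Heat map of log10(1 + mean UMIs per run) for the 8 genes (above the blue line) and for liver, intestinal, epithelial and heart muscle markers (below it) in each classed cell of the cardioids without (18 cells) and with PD173074 (47 cells). Within each sample the cells stand by class, liver-like, mixed (at least 2 genes of each set) and intestine-like, parted by vertical lines; *ALB* lies mainly in liver-like cells, *CDX2* in the other classes, and *GNRH2* is at 0 in every liver-like cell.

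*GNRH2*, not used to class the cells, was at 0 UMIs in all 25 liver-like cells of the cardioids. With PD173074 it reached 2 UMIs in 13 of 19 intestine-like cells (2460 CPM in the class) and in 8 of 14 mixed cells (1060 CPM), and these classes held 64.3% and 34.4% of its UMIs. Without PD173074 it reached 2 UMIs in 0 of 4 intestine-like cells and 1 of 3 mixed cells. Among the 19 intestine-like cells with PD173074 it ran from 0 to 203 UMIs with a median of 20.7. One further cell with PD173074, outside the classes, held 9.0 *GNRH2* UMIs. Outside the classes without PD173074, the cell with 8.2 *GNRH2* UMIs also held 59.4 UMIs of *KRT19*, a keratin of simple epithelia.

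*FABP1*, the second gene outside the rule, was not limited to 1 class. With PD173074 it reached 2 UMIs in 5 of 14 liver-like, 9 of 19 intestine-like and 12 of 14 mixed cells, at 267, 1490 and 1520 CPM. Without PD173074 it reached 2 UMIs in 3 of 11, 1 of 4 and 3 of 3 cells, at 234, 139 and 809 CPM. Its level in liver-like cells thus barely differed between the cardioid samples, while that in intestine-like cells was higher with PD173074. The intestine-like value without PD173074 rests on 4 cells, of which 1 carried the gene.

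Levels of the 6 classing genes, given as a description, showed how uneven the classes were. Without PD173074, *AFP* stood at 6160 CPM and *SERPINA1* at 10900 CPM in liver-like cells. With PD173074 the same genes stood at 1440 and 7080 CPM, and the 14 cells were uneven: 5 held 98.7 to 461 *SERPINA1* UMIs and the other 9 held 0.667 to 15. *TTR* in liver-like cells was at 1300 CPM without and 1410 CPM with PD173074, but 70.3% of its UMIs without and 70.5% with PD173074 lay in mixed cells. *LGALS4* and *PHGR1* in intestine-like cells were at 2270 and 903 CPM without PD173074 and at 1780 and 1970 CPM with it. *AGR2* was at 628 and 703 CPM there, and with PD173074 64.7% of its UMIs lay in mixed cells. The rest of *AGR2* with PD173074 included 3 cells at 2.00 to 4.33 UMIs that carried *GABRP*, a GABA receptor subunit that marks another epithelium of these cultures, at 16, 8.33 and 12 UMIs.

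Many secreted liver genes and intestinal genes of the marker lists followed the classes. The list of liver metabolic enzymes was higher in liver-like than in intestine-like cells only without PD173074, and was highest in mixed cells in both cardioid samples. Without PD173074 it summed to 797 CPM in liver-like, 344 CPM in intestine-like and 821 CPM in mixed cells, against 105 CPM over all cells. With PD173074 it summed to 152 CPM in liver-like, 272 CPM in intestine-like and 608 CPM in mixed cells, against 123 CPM over all cells. In liver-like cells *ALB* stood at 1330 CPM without and 1190 CPM with PD173074, and in intestine-like cells it was at 0. *APOA1* stood at 4240 and 2000 CPM in liver-like cells and at 17.9 and 430 CPM in intestine-like cells. *APOC3*, an apolipoprotein of triglyceride-rich particles, stood at 1180 and 739 CPM in liver-like cells and 0 in intestine-like cells, and *AMBP*, the alpha-1-microglobulin precursor, at 512 and 130 CPM against 0. *AHSG* stood at 1110 and 244 CPM in liver-like cells and at 0 and 6.16 CPM in intestine-like cells. Each of these levels came from a part of the class: *ALB* reached 1 UMI in 5 of 11 liver-like cells without PD173074 and 4 of 14 with it. With PD173074, 3 shallow cells of 1641 to 2068 UMIs held 26.3 to 137 *ALB* UMIs, while the 2 cells with the most *SERPINA1* (461 and 270 UMIs) had no *ALB*.

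Intestinal genes were high in intestine-like cells. *CDX2*, a transcription factor that sets intestinal identity, stood at 199 CPM without and 152 CPM with PD173074 in intestine-like cells, in 3 of 4 and 12 of 19 cells. In liver-like cells it stood at 5.19 and 26.5 CPM, in 0 of 11 and 2 of 14 cells, and no liver-like cell had both *ALB* and *CDX2*. *TSPAN8*, a tetraspanin, stood at 1660 and 851 CPM in intestine-like cells against 42.8 and 105 CPM in liver-like cells. *LGALS3* (galectin 3) stood at 1980 and 2660 CPM against 385 and 400 CPM. *TFF3*, a goblet cell peptide, stood at 1810 CPM in intestine-like cells without PD173074, in 2 of 4 cells, and at 787 CPM with it, in 10 of 19. *KRT20*, a keratin of differentiated gut epithelium, stood at 342 and 206 CPM in intestine-like cells and was at 0 in liver-like cells.

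Counted by list, a gene was measured at 50 CPM or more in either class and called where its interval lay beyond 1.5-fold. With PD173074, 12 of 21 measured genes of the intestinal epithelium were higher in intestine-like than in liver-like cells and 1 was lower, at a median log2 ratio of 2.13. None of 14 measured genes of secreted liver proteins was higher and 9 were lower, at a median of -2.73. Over all 4087 genes measured, 3.33% were higher and 12.3% lower, at a median of -0.31. Without PD173074, 9 of 21 intestinal genes were higher and 0 lower (median 2.09) and 0 of 16 secreted liver genes were higher and 7 lower (median -2.18). Over all 4514 genes measured, 2.24% were higher and 1.42% lower, at a median of 0.00. Goblet and mucus cell genes were higher in 3 of 6 measured with PD173074 and in 3 of 6 without. In intestine-like cells their summed level was uneven, with a median per cell of 777 CPM and up to 56500 CPM in a cell with PD173074. Without PD173074 the median was 1590 CPM and the highest cell had 7020 CPM. Of the endoderm transcription factors, 3 of 12 were higher and 1 lower with PD173074, and 3 of 15 were higher and 0 lower without. *HNF4A*, a factor of both liver and gut, was at 18.4 CPM in liver-like and 71.0 CPM in intestine-like cells with PD173074, and at 56.3 and 90.7 CPM without.

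**Figure D4:**
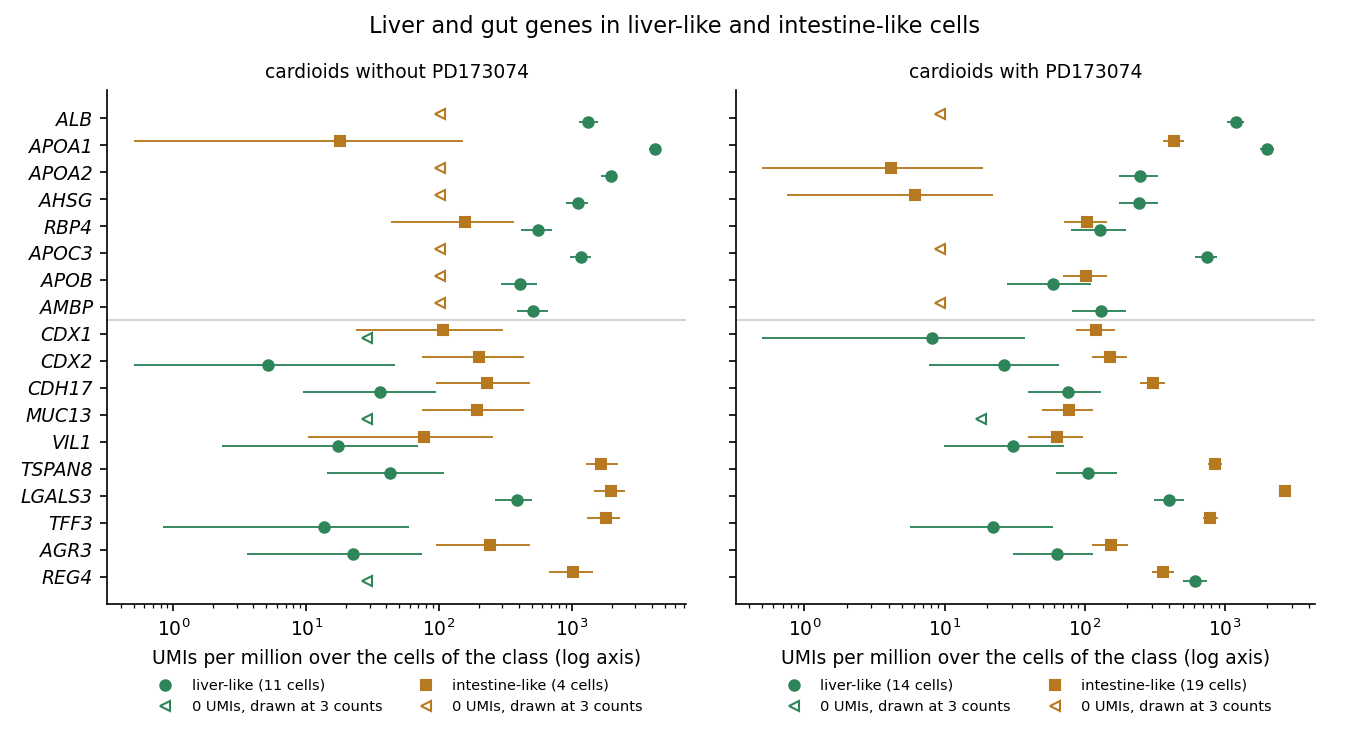
CPM (log axis) of 8 secreted liver proteins and 10 intestinal or goblet genes in liver-like and intestine-like cells of the cardioids without and with PD173074. Lines are exact 95% Poisson intervals, clipped at 0.5 CPM, and open triangles mark 0 UMIs, drawn at the level of 3 counts; *ALB*, *APOC3* and *AMBP* were at 0 in intestine-like cells of both samples, and *TSPAN8* and *LGALS3* were higher there than in liver-like cells.

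Some genes did not keep to these sets. *FGB* (fibrinogen beta chain), on the list of secreted liver proteins, stood at 342 CPM in liver-like and 367 CPM in intestine-like cells with PD173074, and at 237 and 586 CPM without. *SPINK1*, a trypsin inhibitor on the intestinal list, stood at 616 and 930 CPM without PD173074 and at 692 and 476 CPM with it. *CPS1*, an enzyme of the urea cycle expressed in hepatocytes and enterocytes, was at 116 CPM in intestine-like and 6.13 CPM in liver-like cells with PD173074. *REG4*, a lectin of gut secretory cells, reached 616 CPM in liver-like cells with PD173074, in 3 cells, against 364 CPM in intestine-like cells. Of the 13 genes of other endoderm organs (foregut, lung and pancreas), 13 were at 0 in intestine-like cells without PD173074, and their summed level was 6.20 CPM in intestine-like cells with it. In liver-like cells the same list summed to 236 CPM without PD173074, with 1 cell at 3060 CPM, and to 183 CPM with it, with up to 1080 CPM in a cell, against 10.8 and 18.2 CPM over all cells. Of the 13 yolk sac endoderm genes, 4 were measured and 2 were lower in intestine-like than in liver-like cells in each cardioid sample. These were *APOA1* and *APOB* (apolipoprotein B) without PD173074 and *APOA1* and *GATA6* (an endoderm and heart transcription factor) with it. *APOA1* and *APOB* are on the secreted liver list too, so hepatocytes and yolk sac endoderm cannot be told apart by them.

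The largest differences between intestine-like and liver-like cells with PD173074, among genes at 100 CPM or more, included *LCN15*, a lipocalin, at 1580 CPM in 9 intestine-like cells and 0 in liver-like cells. *SLC26A2*, a sulfate transporter, stood at 409 against 10.1 CPM and *ZG16*, a goblet cell lectin, at 156 against 8.14 CPM. *FABP2*, the intestinal fatty acid carrier, stood at 323 against 0 CPM. In the other direction *POSTN* stood at 3.08 against 545 CPM and *COL3A1* at 5.11 against 537 CPM, both connective tissue genes that lay in few liver-like cells (*POSTN* in 3). Of 8 measured genes of the fibroblast list, 6 were lower in intestine-like cells. *SCG2*, a granule protein of endocrine cells, stood at 443 CPM in liver-like cells with PD173074 and came from 1 cell. The whole list of enteroendocrine genes summed to 1060 CPM in these liver-like cells, against 202 CPM over all cells. It reached 16200 CPM in a single liver-like cell, at a median per cell of 23.8 CPM.

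Mixed cells held genes of both sets at levels that were not always between the other two. With PD173074 they had more of the intestinal list than liver-like cells did, with 16 of 20 genes higher and 1 lower (5.11% and 9.63% of 4225 genes). Against intestine-like cells they had 7 of 8 secreted liver genes higher and 0 lower (4.80% and 1.57% of 3438 genes), and 0 of 22 intestinal genes higher and 2 lower. *RBP4*, the retinol carrier of plasma, stood at 1260 CPM in mixed cells, above both liver-like (128 CPM) and intestine-like cells (103 CPM). *LGALS3* stood at 3980 CPM there, also above both. *ALB* stood at 1.62 CPM in mixed cells against 1190 CPM in liver-like cells, and 0 of the 14 mixed cells reached 1 *ALB* UMI. *APOC3* stood at 2.47 CPM against 739 CPM. *CDX2* reached 1 UMI in 13 of the 14 cells. Without PD173074, 1 of the 3 mixed cells had *ALB* and all 3 had *CDX2*.

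Within liver-like cells, the cardioid samples differed in the liver genes and in genes of heart muscle and stroma. Of 17 measured secreted liver genes, 0 were higher and 8 lower with PD173074, at a median log2 ratio of -1.71 (5.43% of 4435 genes were higher and 3.65% lower, median -0.03). *APOA2*, an HDL apolipoprotein, stood at 1990 CPM without and 246 CPM with PD173074 and *SPP1* (osteopontin) at 543 and 4.03 CPM. *ALB*, at 1330 and 1190 CPM, differed little. Of 9 measured heart muscle genes, 7 were higher with PD173074 and 0 lower, and 4 of 8 stroma genes were higher. *TNNT2*, cardiac troponin T, stood at 85.1 and 372 CPM and *MYL7*, an atrial light chain, at 147 and 467 CPM. Of the 14 liver-like cells with PD173074, 3 lay outside the cluster that held the rest, and 2 of these had 5 or more heart muscle genes. Without those 3 cells *TNNT2* stood at 91.0 CPM and *MYL7* at 139 CPM with PD173074, close to the levels without it, while *APOA2* stood at 306 CPM. The heart muscle list summed to 613 CPM in liver-like cells without and 3950 CPM with PD173074, against 17900 and 18700 CPM over all cells, with medians per cell of 192 and 794 CPM. Its part in the lower liver gene levels was not tested.

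Within intestine-like cells the samples differed in few genes, but the 4 cells without PD173074 limit what could be seen. Of 21 measured intestinal genes, 0 were higher and 1 lower with PD173074, at a median log2 ratio of 0.28, where 0.431% of 3943 genes were higher and 1.67% lower at a median of -0.33. *CDX2* had a log2 ratio of -0.39 (-1.62 to 1.12) and *CDH17*, liver-intestine cadherin, 0.40 (-0.69 to 1.76). *GUCA2A* (guanylin) stood at 26.8 CPM with and 532 CPM without PD173074 and *HES6* at 12.3 and 659 CPM. *APOA1* stood at 430 CPM with and 17.9 CPM without PD173074, in 5 cells. *MYL7* stood at 1350 and 42.1 CPM. The heart muscle list summed to 2660 CPM in intestine-like cells with PD173074, with a median per cell of 231 CPM, and to 138 CPM without. Its part in these differences was not tested.

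Clustering of all cells placed most of these cells together. Cluster 12 held 98.8% of the UMIs of the 8 genes without PD173074 and 98.2% with it, and 74, 55 and 3 cells of the cardioids without, the cardioids with PD173074 and the 2D culture. Of these, 21, 49 and 2 carried 1 of the 8 genes at 2 UMIs. The 53 cells without them in the cardioids without PD173074 were also epithelial, with *KRT19* at 3420 CPM, but were led by other genes such as *IFIT3*, *CRH* and *HAND1* (1790 CPM). The cluster was formed from the same counts, so these shares are a description.

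Over the 25 combinations of cluster and cardioid sample, the genes whose levels followed each of the 8 most closely were found by Pearson correlation of log2(CPM + 1), as a description without a test. *MUC13*, a membrane mucin, followed *FABP1* (0.998) and *PHGR1* (0.996), and *HNF4A* followed *LGALS4* (0.994) and *PHGR1* (0.996). *CLRN3* (0.996) and *MEP1A*, a brush border protease (0.995), followed *GNRH2*. *CDX2* (0.977) and *SCGN* (0.976) followed *TTR*, *APOA4* followed *AFP* (0.975) and *SERPINA1* (0.945), and *TDO2* followed *AGR2* (0.981). These values rest on the same 2 points, cluster 12 in each cardioid sample, and the points of a sample share its library and depth.

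*GNRH2* was read beside its neighbour on chromosome 20. *MRPS26*, a mitochondrial ribosomal protein gene at chr20:3045945-3048254, lies on the same strand and starts 197 bases after the annotated end of *GNRH2*. In the 21 intestine-like and mixed cells with *GNRH2* at 2 UMIs in cardioids with PD173074, *GNRH2* stood at 2560 CPM and *MRPS26* at 2820 CPM. In the 12 such cells under 2 *GNRH2* UMIs, *MRPS26* stood at 593 CPM, in liver-like cells at 199 CPM and in all other cells at 147 CPM. This split by *GNRH2* was chosen after its values were seen. Over the 33 intestine-like and mixed cells the 2 genes had a Spearman correlation of 0.770, computed on CPM per cell, both divided by the same depth. It was 0.581 within the 21 *GNRH2* cells and 0.134 over the 7 such cells without PD173074. Among the 21 cells the median was 1.18 *MRPS26* UMIs per *GNRH2* UMI. Without PD173074 the 1 such cell with *GNRH2* (12 UMIs) had 35.6 *MRPS26* UMIs, or 2410 CPM, against 472 CPM in the other 6. *PTPRA*, the neighbour on the other side, stood at 118 CPM in the *GNRH2* cells and 79.2 CPM in the 12 cells, and *MRPS24*, another gene of the same ribosome, at 191 and 296 CPM. Reads were counted at the 3′ ends of transcripts, and whether reads of 1 transcript were shared between *GNRH2* and *MRPS26* was not tested, so the level of *GNRH2* is given with that limit.

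**Figure D5:**
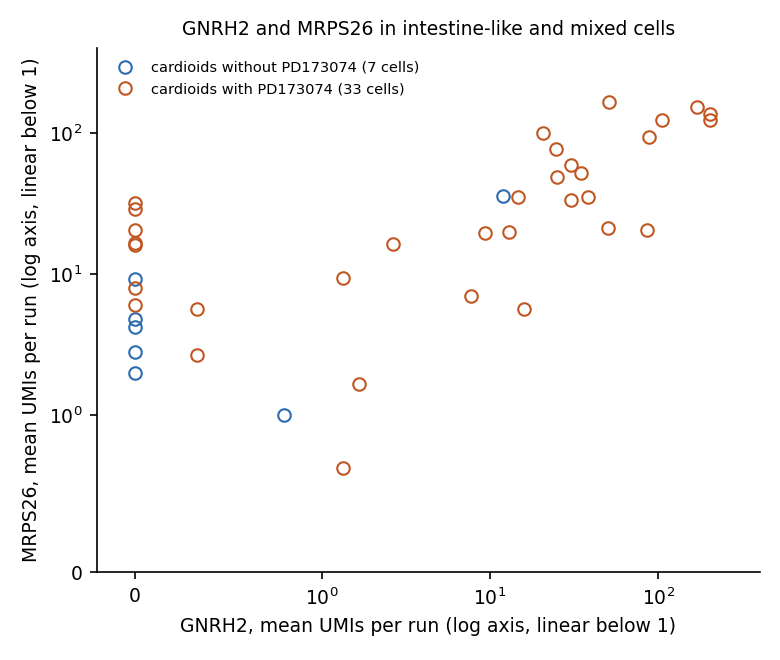
*GNRH2* against *MRPS26* UMIs per cell, on the horizontal and vertical log axes (linear below 1), in the intestine-like and mixed cells of the cardioids without (7 cells) and with PD173074 (33 cells). Most cells with 10 or more *GNRH2* UMIs lie above 10 *MRPS26* UMIs, and the cells with the most *MRPS26* carry *GNRH2*.

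Other neighbours gave different pictures. *ALB*, next to *AFP*, was at 0 in intestine-like cells of both cardioid samples, where *AFP* stood at 0 and 15.3 CPM. *AGR3*, the neighbour and relative of *AGR2*, stood at 242 CPM in intestine-like and 22.5 CPM in liver-like cells without PD173074, and at 153 and 63.1 CPM with it. *ECH1*, a fatty acid oxidation gene next to *LGALS4*, stood at 375 and 146 CPM in intestine-like and liver-like cells without PD173074 and at 313 and 207 CPM with it. Just outside the classes lay 5 cells without PD173074 and 13 cells with it that carried 1 of the 8 genes at 2 UMIs but met neither rule.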

How the data were processed

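The 11 libraries of H9 cells fall into 3 groups. The authors deposited unnormalized UMI counts, by gene and barcode, library by library; per the submitters' processing notes these came from Cell Ranger 7.0.0 and genome build hg38, and per the labels' protocols from 10x 3′ chemistry, in a version that the labels leave unstated. Run totals were 43908067 to 46304366 UMIs in 2D culture, 12266166 to 24495291 without PD173074 and 36127841 to 37765195 with it.

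Barcodes common to all runs of a group (8558, 3572 and 4895) were kept at 1000 or more UMIs, 500 or more genes and at most 30% mitochondrial UMIs, as means over runs. Counts per cell were averaged over runs and levels were expressed as CPM. Intervals are exact 95% Poisson, conditional binomial or Clopper-Pearson. A gene was detected in a cell at a mean of 2 UMIs. Cells were clustered with scanpy 1.11.5 and leidenalg 0.10.2 (2000 variable genes, 30 components, 15 neighbours, resolution 0.6), in Python 3.11.15 with numpy 2.4.6, scipy 1.17.1, pandas 2.3.3 and matplotlib 3.10.9. The calling rule for ratios between samples was run on simulated Poisson counts at the levels and depths of the samples. Those counts do not carry the uneven spread of UMIs over cells.

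The genes and the 17 marker lists were chosen with earlier results of these data known. Named genes were the 8 genes, the highest and the most different members of each list, the 10 genes with the most extreme ratios between classes or samples at 100 CPM or more, and for each of the 8 the 3 most similar genes over clusters. Genes named outside that rule (the cluster's leading genes, the cells of single genes and the neighbours of *GNRH2*) were chosen after their values were seen. Alternatives covered runs left out, scaling, cell filters, thresholds, thinning and cluster resolution.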

Additional observations from a re-analysis of the deposited data

Results flagged for a closer look

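*SERPINA1* in cardioids without PD173074 stood at 70.7 CPM in run 3 and between 55.6 and 58.7 CPM in the other 4 runs. The gap to the nearest run was larger than Dixon's 95% limit for 5 values, which chance passes in about 1 of 20 groups. Run 3 also had the lowest total, 12266166 UMIs. With run 3 or any other single run left out, the log2 ratio of *SERPINA1* with to without PD173074 stayed between -0.65 and -0.55.

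Barcodes that did not pass the cell filter carried some of the 8 genes. With PD173074, 4 of 401 such barcodes had a gene at 2 UMIs or more, and 3 of them met the rule for liver-like cells. All such barcodes together held 114 *TTR*, 16.7 *SERPINA1*, 16 *AFP* and 15 *GNRH2* UMIs. In 2D culture and in cardioids without PD173074, 0 of 438 and 0 of 305 such barcodes had one.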

How the results depend on the processing

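No paired analysis was possible because the runs of a group are repeat reads of 1 sample and no test was computed. No log2 ratio of the 8 genes changed direction under any alternative. Leaving out a run moved the ratio with against without PD173074 by little, from -1.35 to -1.30 for *AFP*, 4.79 to 4.99 for *GNRH2* and 242 to 248 for the number of genes higher. A floor of 5 CPM in place of 20 gave 435 genes higher and 252 lower with against without PD173074 (244 and 160 as reported), 246 and 47 without PD173074 against 2D culture (79 and 30), and 863 and 348 with PD173074 against 2D culture (429 and 215). A threshold of 1.5-fold gave 491 and 397, 220 and 103, and 737 and 524. These are looser rules and count more genes by construction. Asking for 3 of 3 genes gave shares of 0.0283% for intestine-like cells without PD173074, and 0.131% for liver-like and 0.0870% for mixed cells with it, beside 0.392% for intestine-like cells with it and 0.226% and 0.0566% for liver-like and mixed cells without. Thinning to 2000 UMIs gave 0.163% and 0.0930% for liver-like and mixed cells with PD173074, against 0.238% and 0.0596% without. At 3 UMIs per gene, 11 secreted liver genes in place of 7 were lower in intestine-like cells without PD173074; the cause was not tested. Leaving out the highest cell of each gene, chosen after the data were seen, gave ratios with against without PD173074 of 1.74 for *TTR*, -0.40 for *SERPINA1* and 5.69 for *GNRH2*. It also moved all 8 ratios of *AFP*, *TTR*, *SERPINA1* and *FABP1* to 2D culture, for *AFP* from 3.24 to 6.02 without and from 1.92 to 4.60 with PD173074 and for *TTR* from 4.87 to 5.62 and from 5.27 to 7.36. *SERPINA1* and *FABP1* were then under the floor in 2D culture and have no fold. Counting cells of cluster 12 only, also chosen after the data were seen, gave 11 liver-like cells with PD173074 (0.239%). The gut genes in 2D culture were under or near the floor of 3 counts, so their levels there rest on few counts. That floor was 0.067 CPM in 2D culture, lower than the 0.141 CPM without and 0.0819 CPM with PD173074.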
